A study of Mus musculus with 118 samples.

Results

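The genes described here encode the secreted ligands of the transforming growth factor beta (TGF-beta) superfamily in the mouse: bone morphogenetic proteins (BMPs), growth and differentiation factors (GDFs), activin and inhibin subunits, Nodal, the Lefty proteins, the TGF-beta isoforms and anti-Müllerian hormone. A curated list of 33 genes was taken from 26180 genes with a curated RefSeq transcript. It was chosen by family membership and not by any measured value, but with earlier results of these data known. For each gene, the window of 2500 bp to either side of each curated transcription start site (TSS), here called the promoter, was compared with peak lists for RING1B, SUZ12 and PCGF2 on the mm10 genome build. A gene was counted for a factor when at least 1 bp of a promoter lay in a peak.

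The lists come from calibrated chromatin immunoprecipitation sequencing of mouse embryonic stem cells (ESCs), in which human HEK293T cells were added as a spike-in. RING1B is the catalytic core of Polycomb repressive complex 1 (PRC1), SUZ12 is a core subunit of PRC2, and PCGF2 belongs to canonical PRC1. The series holds 118 samples in 42 groups, and the groups behind the lists were all untreated E14 cells. PRC1CPM cells gave 3 samples for each of RING1B, SUZ12 and PCGF2 and came from clone 41, which carries Ring1aI50A/D53K, a Ring1b allele that tamoxifen switches from wild type to I53A/D56K, and Rosa26::ERT2-Cre. SUZ12 was also profiled in 3 samples of PRC1CKO cells (clone B9), which carry Ring1a-/-, Ring1bfl/fl and the same Cre. RING1A was therefore mutant in the PRC1CPM cells and absent from the PRC1CKO cells before any treatment, and each line was 1 clone. RING1B data in PRC1CKO cells, on which the RING1B list also rests, are not among the 118 samples. The lists merge samples into single sets of positions, so no value per sample, no error between replicates and no read depth can be given, and no test was made. A promoter outside a list was not called, which does not show that the protein was absent there. Peak positions hold no expression values, so the cell type was not checked against marker genes.

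TGF-beta superfamily ligands are made as precursors whose mature part is cut free as a dimer. The dimer joins type I and type II receptor kinases, which phosphorylate SMAD transcription factors: most BMPs act through SMAD1, SMAD5 and SMAD9, whereas TGF-beta, activin and Nodal act through SMAD2 and SMAD3. In the early embryo, Nodal and BMP4 pattern the germ layers, and Lefty1 and Lefty2 restrain Nodal. Polycomb complexes mark many silent developmental genes in ESCs, usually at promoters rich in CpG dinucleotides, and Nodal, Gdf3, Lefty1 and Lefty2 are known as genes active in mouse ESCs.

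Promoters of 4 ligand genes show how sequence varied between genes with different patterns of peaks. They were picked by rule from the 22 of 33 ligand genes that had an entry in the RefSeq promoter table of GRCm38.p6 (the NCBI name of mm10). The table runs from 250 bases before to 50 bases after a TSS. Among these 22, Inha (NCBI Gene 16322) and Gdf7 (238057) had the widest RING1B peaks of the genes with all 3 factors. Gdf15 (23886) had the widest of those with RING1B and no SUZ12, and Bmp15 (12155) had the lowest CpG content of those with no peak. Gdf6 and Bmp7 had wider peaks than Gdf7, and Lefty1 than Gdf15, but these genes had no entry. Each promoter is written 5′ to 3′ on the strand of its gene, and capitals mark every CpG.
Inha, second TSS, chr1:75507359-75507658, plus strand: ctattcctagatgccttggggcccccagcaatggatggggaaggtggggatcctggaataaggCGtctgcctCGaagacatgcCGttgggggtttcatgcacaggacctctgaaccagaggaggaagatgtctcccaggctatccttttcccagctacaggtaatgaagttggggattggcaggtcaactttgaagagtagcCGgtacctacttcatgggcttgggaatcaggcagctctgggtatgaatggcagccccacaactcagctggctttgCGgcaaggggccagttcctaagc
Gdf7, chr12:8301905-8302204, minus strand: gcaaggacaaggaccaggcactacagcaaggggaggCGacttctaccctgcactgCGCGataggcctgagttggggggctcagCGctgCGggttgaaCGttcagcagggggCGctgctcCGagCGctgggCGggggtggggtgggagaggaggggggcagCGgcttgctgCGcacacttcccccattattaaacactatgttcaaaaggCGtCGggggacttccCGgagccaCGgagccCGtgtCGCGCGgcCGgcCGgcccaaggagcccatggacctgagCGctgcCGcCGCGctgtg
Gdf15, first TSS, chr8:70632407-70632706, minus strand: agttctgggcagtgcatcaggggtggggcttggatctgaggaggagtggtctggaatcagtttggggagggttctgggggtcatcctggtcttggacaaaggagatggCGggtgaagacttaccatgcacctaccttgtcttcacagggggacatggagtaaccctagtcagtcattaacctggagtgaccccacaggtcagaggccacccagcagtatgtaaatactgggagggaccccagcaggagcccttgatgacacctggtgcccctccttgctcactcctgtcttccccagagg
Gdf15, second TSS, chr8:70632046-70632345, minus strand: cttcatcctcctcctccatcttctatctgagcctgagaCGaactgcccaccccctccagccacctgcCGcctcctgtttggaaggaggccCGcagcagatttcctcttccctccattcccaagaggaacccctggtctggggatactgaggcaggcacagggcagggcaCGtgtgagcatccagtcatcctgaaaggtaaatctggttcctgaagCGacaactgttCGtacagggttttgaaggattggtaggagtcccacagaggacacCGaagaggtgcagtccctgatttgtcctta
Bmp15, chrX:6320675-6320974, minus strand: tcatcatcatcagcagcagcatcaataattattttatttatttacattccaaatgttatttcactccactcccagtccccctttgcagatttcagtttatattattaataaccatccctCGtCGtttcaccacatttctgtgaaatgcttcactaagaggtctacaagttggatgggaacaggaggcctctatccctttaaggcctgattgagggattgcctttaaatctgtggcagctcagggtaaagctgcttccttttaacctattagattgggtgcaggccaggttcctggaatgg
The Gdf7 stretch held 26 CpGs, against 5 in Inha, 1 and 7 at the Gdf15 start sites and 2 in Bmp15, and the median over all 32851 entries of the table was 7. All of the Gdf7 stretch lay under peaks of the 3 factors. The Inha stretch, at the second of its 2 start sites, lay under RING1B and SUZ12 but outside the PCGF2 peak. At Gdf15 the first stretch lay outside the RING1B peak, and the second met that peak only from 19 bp past its TSS. The motif TATAAA was searched on the gene's strand from 45 to 16 bases before the TSS. It occurred in 2 of the 24 entries of ligand genes, those of Mstn and Tgfb2, and in 2.14% of all entries.

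Peaks of RING1B lay at 26 of the 33 ligand genes (78.8%), whereas 53.2% of all annotated genes had one. SUZ12 peaks lay at 19 (57.6%, against 24.8% of all genes) and PCGF2 peaks at 16 (48.5%, against 13.5%). All 19 genes with SUZ12 also had RING1B (57.6%, against 24.5% of all genes), and the 16 genes with PCGF2 had all 3 factors, a pattern found at 13.4% of all genes. RING1B without SUZ12 lay at 7 ligand genes (21.2%, against 28.7%), and the other 7 had no peak of any list (21.2%, against 46.5%). The ligand genes were thus above the background for each factor and for all 3 together, and below it for no peak. For RING1B without SUZ12 the shares lay closer together, and 7 genes are too few to call them different. Among the 21000 protein-coding genes the background was a little higher, at 58.5% for RING1B, 27.2% for SUZ12, 26.9% for RING1B with SUZ12, 14.5% for PCGF2 and for all 3 factors, and 31.5% for RING1B without SUZ12, and lower for no peak, at 41.2%.

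**Figure D1:**
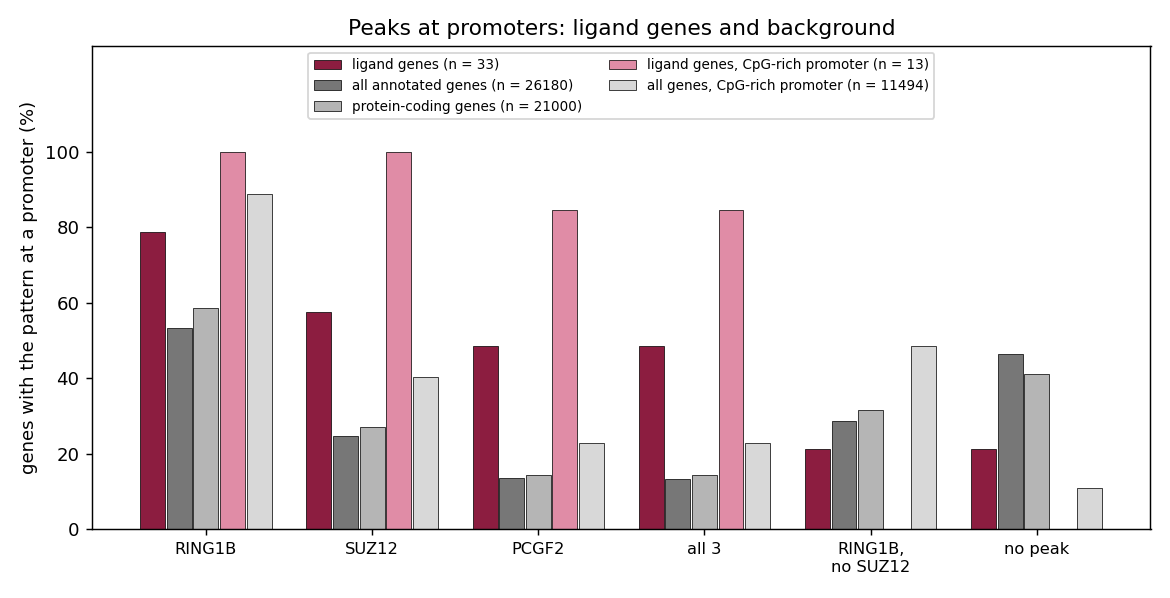
Share of genes (in percent, vertical axis) whose promoters carry each pattern of peaks, for the 33 ligand genes, all annotated genes, protein-coding genes, and ligand genes and all genes with a CpG-rich promoter. All 3 factors lay at 48.5% of ligand genes against 13.4% of all genes, and at 84.6% against 23.0% where the promoter was CpG-rich.

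Promoter sequence was then set beside these calls, since most genes with RING1B in the lists have CpG-rich promoters. A promoter was called CpG-rich when the 500 bp to either side of the TSS had a CpG observed/expected ratio of at least 0.6 and a GC content of at least 50%. By this measure 13 of 33 ligand genes (39.4%) were CpG-rich, close to the 43.9% of all genes. All 13 had RING1B and SUZ12, a pattern at 40.3% of all CpG-rich genes, of which 88.8% had RING1B and 40.4% had SUZ12. Of the 13, 11 had PCGF2 and so all 3 factors (84.6%, against 23.0%). The 2 others were Gdf1 and Tgfb3. RING1B without SUZ12, found at 48.5% of all CpG-rich genes, occurred at 0 of the 13, and no peak, found at 11.0%, also at 0. Among the 20 ligand genes without a CpG-rich promoter, 13 had RING1B (65.0%, against 25.3% of all such genes) and 6 had SUZ12 as well (30.0%, against 12.1% with both and 12.5% with SUZ12). All 3 factors lay at 5 (25.0%, against 5.91%, and 5.94% with PCGF2), RING1B without SUZ12 at 7 (35.0%, against 13.2%), and 7 had no peak (35.0%, against 74.3%). Both with and without a CpG-rich promoter, the share with all 3 factors was therefore above that of all genes.

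The class of peaks also went with CpG content within the family. Ligand genes with all 3 factors had a median CpG observed/expected of 0.718 (range 0.283 to 1.08), near the 0.733 of all genes with all 3 factors. Those with no peak had a median of 0.320 (0.178 to 0.486), and all genes with no peak 0.224. The genes with RING1B alone differed from their background, since their median was 0.283 (0.214 to 0.472), whereas all genes with RING1B alone had a median of 0.752. None of these 7 promoters was CpG-rich, against 74.2% of the 7498 genes of that class. Their values overlapped those of the ligand genes with no peak.

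**Figure D2:**
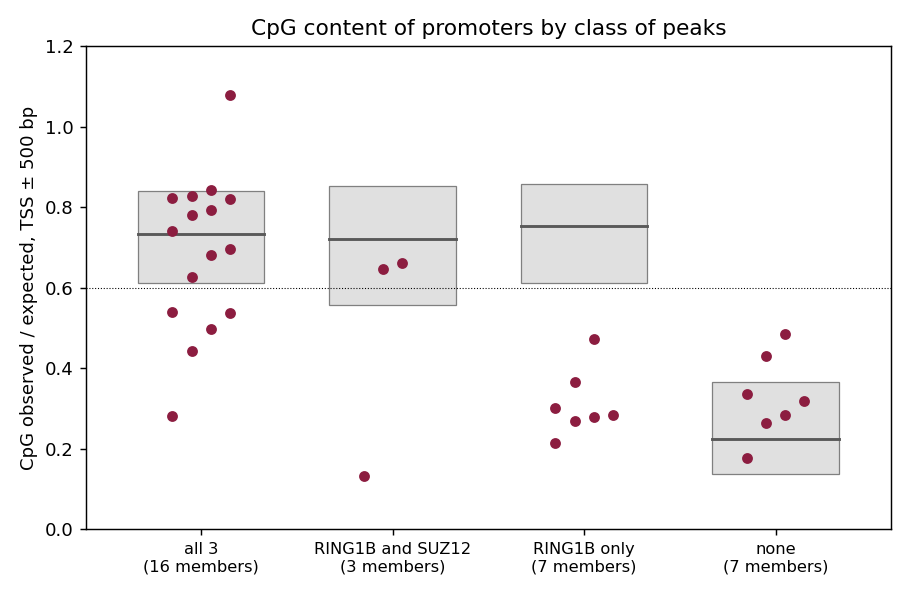
CpG observed/expected ratio of the 1001 bp around the TSS (vertical axis) by class of peaks. Points are ligand genes, grey boxes span the lower to upper quartile of all annotated genes of the class with their median as a line, and the dotted line is the 0.6 limit for a CpG-rich promoter. The 7 genes with RING1B alone lie between 0.214 and 0.472, under the box of their class.

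BMP-type ligands that signal through BMP receptors fell to either extreme. Of these 12 genes, 8 had all 3 factors (66.7%, against 13.4% of all genes) and 4 had no peak (33.3%, against 46.5%), with none between. That split also held with 1000 bp to either side, but not under every setting. With 5000 bp to either side Gdf5 had SUZ12 alone, and with the TSS required inside a peak Bmp8a had RING1B alone. The 8 were Bmp2, Bmp4, Bmp6, Bmp7, Bmp8a, Bmp8b, Gdf6 and Gdf7. The 4 without a peak were Bmp5, which shapes the external ear and skeleton, Bmp10, a ligand of the developing heart, Gdf2, which encodes BMP9 from the liver, and Gdf5, a factor of joint formation.

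Bmp2 and Bmp4, which act in bone formation and early embryonic patterning, had wide peaks of similar extent in each list. At Bmp2 (chr2:133550236-133557594 for RING1B) the widths were 7359 bp for RING1B, 7446 bp for SUZ12 and 6190 bp for PCGF2. At Bmp4 (chr14:46384347-46392366) they were 8020, 7752 and 6385 bp, and RING1B covered 88.5% of the gene. RING1B and SUZ12 edges nearly coincided at both genes, and PCGF2 was the narrowest. Bmp4 reached this width with a promoter that was not CpG-rich (0.443), although 3600 bp of CpG-rich sequence lay within 10 kb of its TSS, the most of any of the 26 genes with RING1B. The Bmp4 peaks also contained the TSS of Gm15222, so the peaks cannot be told apart between these genes.

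In the BMP5/6/7/8 group, Bmp7, needed for kidney and eye development, had the widest peaks at 9509 bp for RING1B, 9794 bp for SUZ12 and 8488 bp for PCGF2. Its PCGF2 peak spanned 89.3% of the RING1B peak, the highest share of the 16 genes. Bmp7 was also the gene with the most further RING1B peaks: 4 more lay in or across the end of the gene, from 25.9 to 73.6 kb beyond the TSS, while SUZ12 and PCGF2 had no further peak in the gene. At Bmp6 the SUZ12 peak ran 2818 bp further into the gene than RING1B (8414 bp against 5647 bp), and PCGF2 was 4270 bp wide. Bmp8a and Bmp8b, neighbouring copies that act in germ cell development, had narrower RING1B peaks of 2859 and 3017 bp. Their start sites lie 238 kb apart on chromosome 4, and each gene also had a narrow intronic RING1B peak. It was 558 bp wide at 19.3 kb in Bmp8a, with SUZ12 and PCGF2, and 631 bp wide at 10.7 kb in Bmp8b, with SUZ12. As copies they share sequence: 2.99% of the 50-bp words under the Bmp8a promoter RING1B peak and 11.4% of those under its intronic one also occur at Bmp8b. Reads confined to such words cannot be mapped uniquely, so the lists could miss signal there.

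Gdf6, which acts in joints and the eye, carried the longest domain of the family. Its SUZ12 peak ran for 20808 bp (chr4:9841798-9862605) and covered the whole gene. Over the same stretch RING1B and PCGF2 each formed 2 peaks: RING1B peaks of 9636 bp at the promoter and 4695 bp from 12.6 kb beyond the TSS, and PCGF2 peaks of 7837 and 3942 bp inside them. The distal pair lay over the last exon and part of the intron, and each held 950 bp of coding sequence. Gdf7, a roof plate signal of the spinal cord, is a short gene of 4037 bp, and peaks of all 3 factors covered all of it, at 8429 bp for RING1B, 10635 bp for SUZ12 and 6410 bp for PCGF2. Gdf5, the third member of this group, had a SUZ12 peak of 1091 bp that began 2839 bp past the TSS, just outside the window, and held 875 bp of coding sequence. The nearest RING1B peak was 10.5 kb from the Gdf5 TSS.

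**Figure D3:**
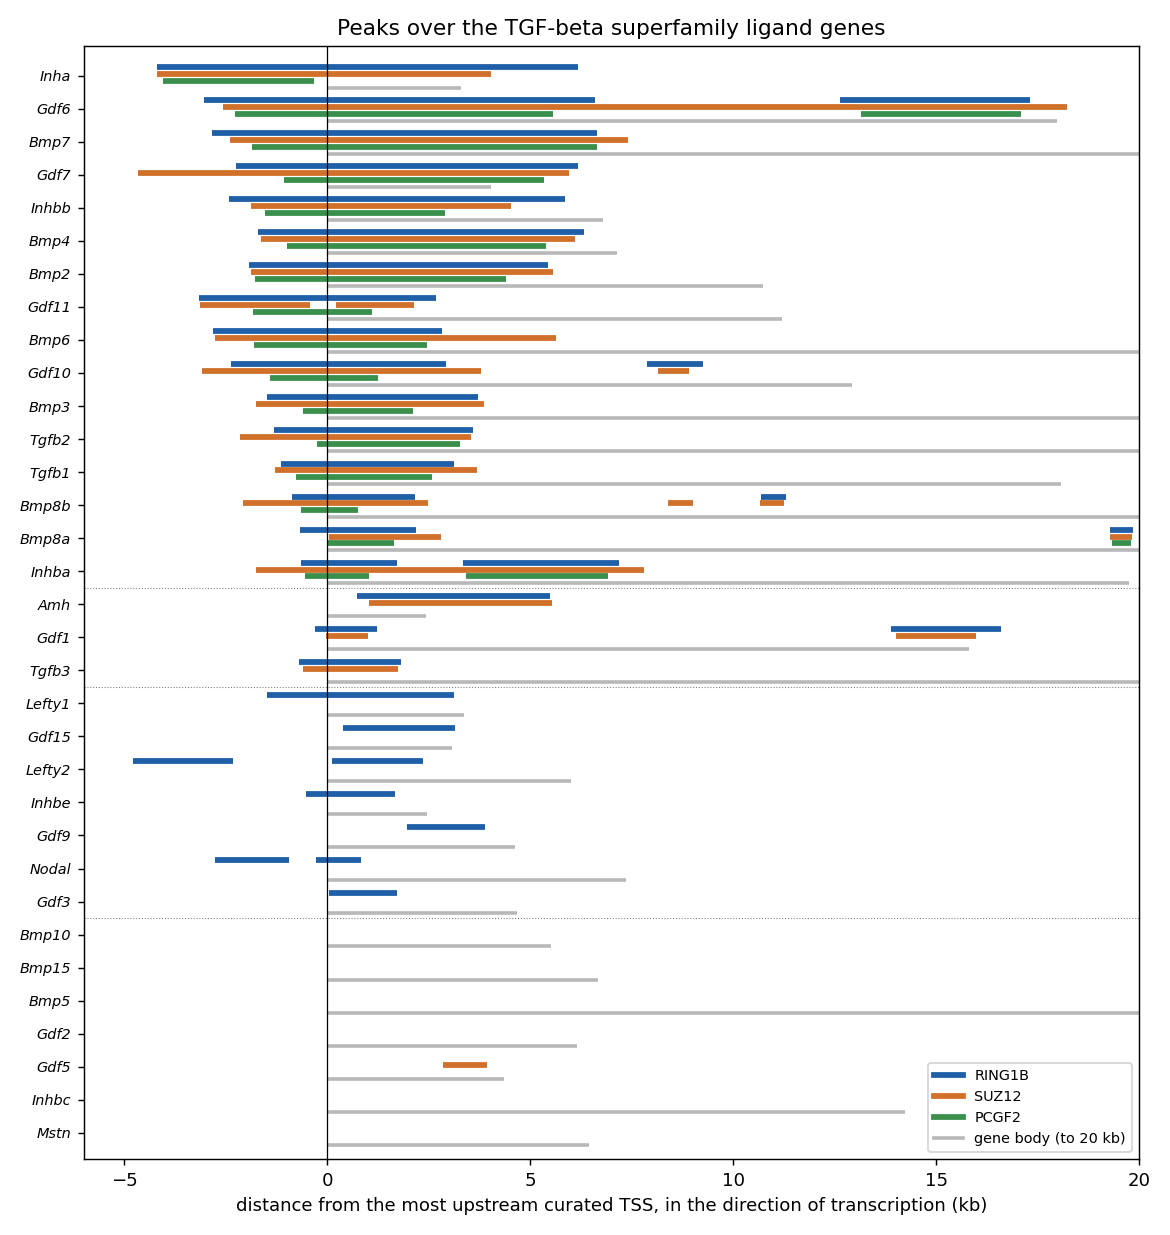
Peaks of RING1B (blue), SUZ12 (orange) and PCGF2 (green) over the 33 ligand genes, by distance from the most upstream curated TSS in the direction of transcription (kb, horizontal axis). Grey bars are gene bodies, drawn to 20 kb, and dotted lines part the classes with all 3 factors, RING1B and SUZ12, RING1B alone and no peak. The SUZ12 peaks of Gdf6 (20808 bp) and Inhba (9563 bp) each run from the promoter peaks of RING1B and PCGF2 across a second peak of both.

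Bmp3 and Gdf10, relatives of each other that differ from the classic BMPs in activity, both had all 3 factors. Their widths were alike, with RING1B peaks of 5180 bp at Bmp3 and 5290 bp at Gdf10, SUZ12 peaks of 5614 and 6870 bp, and PCGF2 peaks of 2717 and 2655 bp. Only the Gdf10 promoter was CpG-rich of the pair (0.740 against 0.496). Gdf2 starts 17.5 kb from Gdf10 on chromosome 14 and had no peak at its promoter. Its nearest RING1B peak, 8.20 kb away, was the second one of Gdf10, which lay over 932 bp of Gdf10 coding sequence.

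Activin and inhibin subunit genes were split. Inhba and Inhbb, which encode the activin beta A and beta B chains, and Inha, the inhibin alpha chain that lowers follicle-stimulating hormone, had all 3 factors. Inhbe had RING1B alone and Inhbc had no peak. Both are made mainly in liver, and their start sites are 18.7 kb apart on chromosome 10. Inhbb was the only one of the 5 with a CpG-rich promoter, and its RING1B peak of 8266 bp extended past SUZ12 (6409 bp) and PCGF2 (4425 bp) on either side. Inhba showed the opposite order: its SUZ12 peak of 9563 bp (chr13:16010092-16019654) was 4.06 times as wide as the promoter RING1B peak of 2358 bp, the narrowest of the 16. As at Gdf6, that SUZ12 peak spanned a second RING1B peak of 3842 bp from 3.34 kb beyond the TSS and a second PCGF2 peak of 3499 bp within it. The promoter peaks of all 3 factors at Inhba lay wholly over B230303A05Rik, a gene on the other strand whose TSS was outside them.

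Inha had the widest RING1B peak of all ligand genes, 10378 bp at chr1:75502879-75513256, wider than 98.0% of the 18643 RING1B peaks. Its SUZ12 peak was 8242 bp wide and both covered the whole gene. PCGF2, however, covered only 3718 bp, from 4047 to 330 bp upstream of the Inha TSS. The peaks of all 3 lists contained the TSS of the neighbouring gene Obsl1, which runs the other way, and 3423 bp of the PCGF2 peak lay over it. The Obsl1 promoter had a CpG observed/expected of 0.639, against 0.283 at Inha. Peaks that belong to Inha and peaks that belong to Obsl1 cannot be told apart here. Without Inha and Bmp4, the genes whose peaks held the TSS of another gene, 14 ligand genes had all 3 factors.

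Among the TGF-beta isoforms, Tgfb1 and Tgfb2 had all 3 factors and Tgfb3 had RING1B and SUZ12. Tgfb1, a regulator of immune cells and matrix, had peaks of 4273 bp (RING1B), 4971 bp (SUZ12) and 3354 bp (PCGF2), and Tgfb2 had peaks of 4901, 5693 and 3534 bp. The Tgfb1 peaks also lay over the neighbouring gene B9d2, by 704, 845 and 333 bp. Tgfb3, which is needed for closure of the palate, had narrower peaks of 2523 and 2346 bp, and the nearest PCGF2 peak was 342 kb away. Myostatin and its relative Gdf11 parted fully. Mstn, which limits muscle growth, had no peak, and RING1B came no nearer than 108 kb. Gdf11, which acts in patterning of the body axis, had a RING1B peak of 5844 bp with PCGF2 of 2956 bp over the TSS, while SUZ12 formed 2 peaks of 1926 and 2701 bp on either side of it, 222 bp into the gene and 436 bp upstream.

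The Nodal branch mostly had RING1B alone. Nodal, its antagonists Lefty1 and Lefty2, and Gdf3, which forms dimers with Nodal, had RING1B and neither SUZ12 nor PCGF2. RING1B without SUZ12 lay at 28.7% of all genes, and these genes are too few to set against that share. With the TSS required inside a peak, Gdf3 and Lefty2 had no peak. Gdf1, the remaining partner of Nodal, had RING1B and SUZ12. PCGF2, found at 13.5% of all genes, was called at none of Nodal, Gdf1 and Gdf3, a number too small to set against that share. The nearest PCGF2 peak lay at 206 kb from Nodal, 43.2 kb from Gdf1 and 1134 kb from Gdf3.

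At Nodal, RING1B formed a peak of 1114 bp over the TSS and a wider one of 1828 bp that ended 950 bp upstream. Gdf3 had a single peak of 1661 bp, which began 50 bp inside the gene. Lefty1 (chr1:180933543-180938154) had a peak of 4612 bp that covered 92.7% of the gene, with all 1107 bp of its coding sequence. Lefty2, which starts 41.9 kb away, had a peak of 2243 bp that began 110 bp inside the gene and another of 2476 bp that ended 2323 bp upstream, just within the window. The Lefty1 peak was thus wider than those of the other 3 genes and than 89.4% of all RING1B peaks. The nearest SUZ12 peak was 5.925 kb from the Lefty1 TSS and 57.9 kb from the Nodal TSS.

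Gdf1 had peaks at both of its start sites. The first carried RING1B over 1543 bp and SUZ12 over 1031 bp, and these peaks also contained the TSS of Cers1, so the genes cannot be told apart there. The second, at the Gdf1 coding sequence, carried RING1B over 2706 bp and SUZ12 over 1973 bp, and both peaks held all 1074 bp of coding sequence. These peaks also lay over Cers1, by 1918 bp for RING1B and 1791 bp for SUZ12, and over the end of the neighbouring gene Upf1, by 884 and 278 bp.

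The remaining ligands had peaks off their start sites or none. Amh, which makes the Müllerian ducts regress, had RING1B and SUZ12 over 4753 and 4495 bp, but these began 725 and 1037 bp inside the gene and ran 3038 and 3092 bp past its end, over part of the neighbouring gene Jsrp1. The Amh promoter had the lowest CpG content of the family (0.133), and 3200 bp of CpG-rich sequence lay within 10 kb. Gdf15, a stress-induced hormone, had RING1B alone over 2775 bp, from 19 bp past its second TSS to beyond the end of the gene, 87.6% of the gene in all. Of the oocyte factors, Gdf9 had a RING1B peak of 1925 bp that began 1960 bp inside the gene, and Bmp15 had no peak and the lowest CpG content of the 7 genes without one, with RING1B 78.8 kb away. With 1000 bp to either side of the TSS, Gdf9 had no peak and Amh had RING1B alone.

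Of the 7 genes without a peak, RING1B was nearest at Gdf2 (8.20 kb), Inhbc (9.37 kb) and Gdf5 (10.5 kb). At the other 4 it was between 78.8 kb (Bmp15) and 108 kb (Mstn) from the TSS. At most 600 bp of CpG-rich sequence lay within 10 kb of any of the 7, whereas the 16 genes with all 3 factors had 800 to 3600 bp. The ranges with RING1B alone (500 to 1800 bp) and with RING1B and SUZ12 (500 to 3200 bp) overlapped both.

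The position of RING1B relative to the TSS differed between the classes. A start site lay inside a RING1B peak at 16 of the 16 genes with all 3 factors, against 98.1% of all genes of that class. With RING1B alone this held for 3 of 7 ligand genes (Nodal, Lefty1 and Inhbe), or 42.9%, against 86.3% of all genes of the class. The 4 others were Gdf3, Lefty2, Gdf15 and Gdf9, whose peaks began inside the gene, apart from the upstream peak of Lefty2. Where all 3 factors lay at a promoter, RING1B reached further downstream than upstream of the TSS at 15 of 16 genes (93.8%, against 72.0% of all such genes), with medians of 3648 bp downstream and 2082.5 bp upstream. Gdf11 was the exception, with 2690 and 3153 bp.

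RING1B peaks at the 16 genes with all 3 factors had a median width of 5745.5 bp (range 2358 to 10378), and the median over the distinct peaks of all genes with all 3 factors was 4669 bp. At the 3 genes with RING1B and SUZ12 the median was 2706 bp, against 1974 bp. With RING1B alone it was 2194 bp (1661 to 4612), against 1198 bp, and the widest peak of each of the 7 lay above that median. At Nodal that was the upstream peak, and its peak over the TSS, at 1114 bp, lay below. The ranges of the first and last of these classes overlapped, through Inhba, Bmp8a, Bmp8b and Tgfb1 among the first and Lefty1, Gdf15 and Lefty2 among the last.

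**Figure D4:**
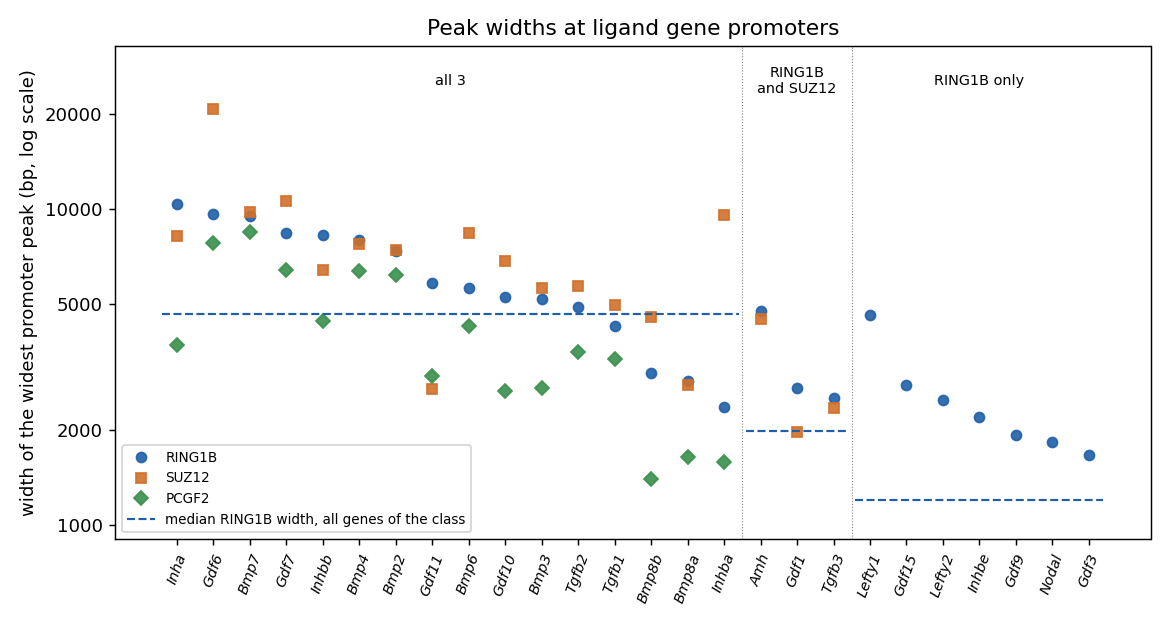
Width of the widest promoter peak (bp, log scale) of RING1B, SUZ12 and PCGF2 at the 26 ligand genes with RING1B, ordered by class and RING1B width. Dashed lines are the median RING1B width of all genes of each class, at 4669, 1974 and 1198 bp. PCGF2 lies below RING1B at all 16 genes that have both.

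The lists were called by different rules, which can shift widths between them. With that limit, PCGF2 lay wholly inside the RING1B peak at 16 of 16 genes, against 94.0% over all genes with all 3 factors. It spanned a median of 69.6% of the RING1B peak, from 35.8% at Inha to 89.3% at Bmp7. PCGF2 lay inside a single SUZ12 peak at 14 of 16 (87.5%, close to the 85.9% over all such genes), the exceptions being Bmp8a and Gdf11. SUZ12 was wider than RING1B at 11 of 16 genes (68.8%), a share like that of all such genes (67.9%), and the ratio ran from 0.462 at Gdf11 to 4.06 at Inhba.

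Across the 26 genes with RING1B, the width of the RING1B peak rose with the length of CpG-rich sequence within 10 kb of the TSS (Pearson r = 0.705, Spearman rho = 0.686). Across the 16 genes with all 3 factors, RING1B width went with PCGF2 width (r = 0.819, rho = 0.838) and less closely with SUZ12 width (r = 0.555, rho = 0.582). These are descriptions across genes, which share the same lists and genome composition and are not replicates. Amh and Tgfb1 had narrower RING1B peaks than the other genes with as much CpG-rich sequence, at 3200 and 3400 bp of it.

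**Figure D5:**
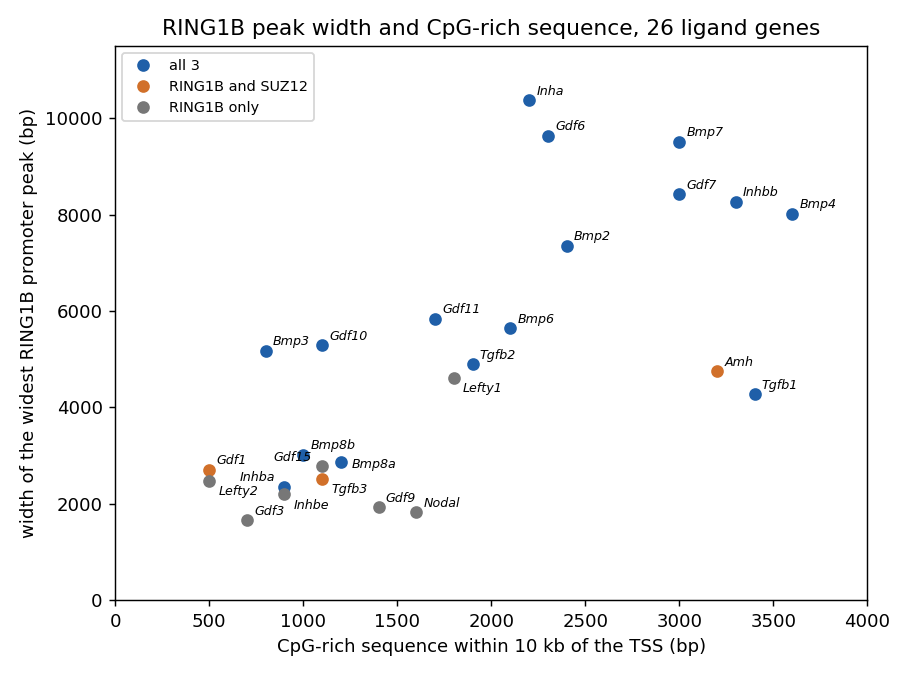
Width of the widest RING1B promoter peak (bp, vertical axis) against CpG-rich sequence within 10 kb of the TSS (bp, horizontal axis) for the 26 ligand genes with RING1B, coloured by class. Genes with 2000 bp or more of such sequence have peaks of at least 4273 bp.

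The other genes of the pathway were read from 7 lists with 63 genes in all, from receptors to targets. RING1B lay at 59 (93.7%, against 53.2% of all genes), SUZ12 at 52 (82.5%, against 24.8%) and all 3 factors at 36 (57.1%, against 13.4%). These shares were higher than those of the ligand genes. No peak lay at 4 (6.35%, against 46.5%), a lower share than the 21.2% of the ligand genes. Of the pathway genes, 76.2% had a CpG-rich promoter, against 39.4% of the ligand genes, and its part in the difference was not tested. Over all CpG-rich genes, 88.8% had RING1B, near the share of the pathway genes, 40.4% had SUZ12 and 23.0% had all 3 factors. All 7 type I receptor genes had RING1B and SUZ12, against 24.5% of all genes, and 4 also had PCGF2 (57.1%, against 13.4% with all 3 factors). The widest RING1B peaks of that list lay at Bmpr1b (6465 bp), Tgfbr1 (3323 bp) and Acvrl1 (3230 bp). Of the 5 type II receptor genes, Bmpr2, Tgfbr2 and Acvr2a had all 3 factors (60.0%, against 13.4%), and Amhr2, the receptor of anti-Müllerian hormone, had no peak. Among the 7 co-receptor genes, Rgmb, Rgma and Tgfbr3 had all 3 factors (42.9%, against 13.4%). The Nodal co-receptor gene Tdgf1 had RING1B alone, and the endothelial co-receptor gene Eng had no peak.

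All 8 SMAD genes had a CpG-rich promoter and RING1B, as did 88.8% of all CpG-rich genes. Smad3, Smad6 and Smad9 had all 3 factors (37.5%, against 23.0% of CpG-rich genes), and RING1B without SUZ12 lay at Smad2, Smad5 and Smad7 (37.5%, against 48.5%). Of the 15 secreted antagonists, 8 had all 3 factors (53.3%, against 13.4% of all genes). The widest RING1B peaks among these lay at Fst (8520 bp), Sost (8425 bp) and Nog (8039 bp), which encode follistatin, sclerostin and noggin. Dand5 had RING1B alone, and Cer1, another antagonist of Nodal, and Sostdc1 had no peak. All 10 genes for latency and processing had RING1B and SUZ12, against 24.5% of all genes. All 3 factors lay at 8 of them (80.0%, against 13.4%), the exceptions being Ltbp4 and Lrrc32. Of 11 target genes, 7 had all 3 factors (63.6%, against 13.4%). RING1B peaks of 19576 bp at Msx1 and 17545 bp at Msx2 were both wider than any RING1B peak at a ligand gene. Skil had RING1B alone.

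Wnt and Fgf ligand genes were taken as other families of secreted signals. All 3 factors lay at 26 of these 37 genes (70.3%, against 13.4% of all genes), at 17 of 19 Wnt and 9 of 18 Fgf genes. No peak lay at 5 (13.5%, against 46.5%). Their share of CpG-rich promoters was 62.2%. RING1B without SUZ12 lay at 2 of them (5.41%), against 7 of the 33 TGF-beta superfamily ligand genes (21.2%). Both shares were below the 28.7% of all genes, that of the TGF-beta superfamily ligand genes by less. These differences between families were not tested.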

How the data were processed

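The 3 deposited peak lists are in BED format and give only where each peak starts and ends, in bp, with no height, score or p-value. According to the methods of the study, the authors mapped read pairs to mm10 combined with hg19, for the HEK293T spike-in, using Bowtie 2. Only unique reads were kept, duplicates were taken out with Sambamba, and MACS2 called broad peaks over the Input of each line. RING1B and SUZ12 peaks were called on merged replicates of untreated PRC1CPM and PRC1CKO cells and kept if found in both lines, and RING1B peaks had also to lose signal on tamoxifen in PRC1CKO cells. PCGF2 peaks were those found in every replicate of untreated PRC1CPM cells. Blacklisted regions were removed. The lists held 18643 RING1B, 7438 SUZ12 and 3680 PCGF2 peaks, and 0 ran past a chromosome end of GRCm38.p6.

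Start sites came from curated RefSeq transcripts of that assembly, and coordinates count from base 1. Promoters were the TSS plus or minus 2500 bp, and the widest peak at a promoter gave the width. For genes with several start sites, the one with the highest CpG observed/expected gave the CpG value. CpG-rich sequence within 10 kb was counted in windows of 200 bp moved by 100 bp under the same limits of 0.6 and 50%. The lists give no depth and no replicate values, so counts are set beside the share of all annotated genes and no test was made. The ligand genes and pathway lists were chosen with earlier results of these data known. All 33 ligand genes are named. Other genes were named where they had the widest RING1B peaks of a list with all 3 factors (up to 3) or were the exceptions of a list (up to 4). Some genes that this rule selects are not reported here. RING1B data in PRC1CKO cells, other antibodies and treated cells were not analysed here. The overlap code was tested on simulated intervals. Tables were made with pandas 2.3.3 and NumPy 2.4.6 under Python 3.11.15, correlations with SciPy 1.17.1 and plots with matplotlib 3.10.9.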

Additional observations from a re-analysis of the deposited data

How the results depend on the processing

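No paired analysis was possible because replicates are pooled in every list and nothing was tested and, for the same reason, leaving out 1 replicate at a time could not be done. The calls were recomputed under 8 settings: promoters of 1000 or 5000 bp to either side, the TSS itself inside a peak, all RefSeq transcripts, the most upstream TSS, at least 500 bp shared, peaks of at least 1000 bp, and peaks within 1000 bp merged. For the pathway lists these were chosen after seeing the data. Of 88 values of the main results, 78 stayed the same, which for a count means within 1.5 times, and 24 of 33 ligand genes kept their class under all 8 settings.

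With the TSS required inside a peak, 12 ligand genes had no peak in place of 7, against 51.7% of all genes. RING1B then lay at 21, SUZ12 at 16, all 3 factors at 13 and RING1B without SUZ12 at 5 (48.0%, 18.9%, 11.8% and 29.4% of all genes). Gdf9, Gdf3, Lefty2, Gdf15 and Amh then had none, Bmp8a had RING1B alone, Inha lost PCGF2 and Gdf11 lost SUZ12. With 1000 bp to either side, Gdf9 had no peak and Amh had RING1B alone, and with 5000 bp Gdf5 had SUZ12 alone. The median RING1B width with all 3 factors became 5647 bp with the TSS inside and 6503 bp with merging. With RING1B and no SUZ12 it became 2243 bp at 1000 bp, 2859 bp with the TSS inside and 2476 bp with merging. Median CpG observed/expected with all 3 factors became 0.784 within 250 bp of the TSS and 0.471 within 2500 bp, and with no peak 0.271 and 0.266. The lists give no depth, so what depth limits could not be given.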
